A study of Mus musculus with 16 samples.

Results

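BMAL1 pairs with CLOCK to form the activator of the mammalian circadian clock. The pair binds the E-box sequence CACGTG and switches on, among others, the Period and Cryptochrome genes, whose proteins repress it in turn, so that binding in liver rises and falls over the day. In hepatocytes the same activator also occupies genes of lipid, glucose and xenobiotic metabolism.

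The sites described here are 568 of the 7043 intervals in which the authors merged the BMAL1 peaks of mouse liver (8.06%). They were chosen by the authors' peak calls, as intervals with no peak in any of the 4 control libraries, a peak in at least 1 male and at least 1 female misaligned library, and a peak in at most 3 libraries. The choice therefore fixes that these sites were called in misaligned and not in control liver, and these calls are a description, not a result. BMAL1 chromatin immunoprecipitation was sequenced in 8 libraries, 1 for each of male misaligned ZT0, male misaligned ZT12, female misaligned ZT0, female misaligned ZT12, male control ZT0, male control ZT12, female control ZT0 and female control ZT12, where ZT counts hours in the daily light cycle. Each library was made from liver pooled from 3 to 4 C57bl6 mice aged 8 to 16 weeks. All mice were housed in 12 h light and 12 h dark with food at will, and all, controls included, were moved from chow to a diet with 42% of calories from fat when the control or misaligned protocol began. The labels do not describe the misaligned schedule. With 1 library per group no difference between groups can be set against replicate error, so no test is given and intervals cover counting error only.

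The 4 misaligned lists held 1864 peaks (male ZT0), 5542 (male ZT12), 1330 (female ZT0) and 221 (female ZT12). The control lists held 373, 290, 225 and 141 peaks in the same order. Sequencing depth is unknown. The lowest local background of a list, in fragments, scales with depth, and it was 4.32, 4.25, 5.06 and 6.14 in the misaligned lists and 6.16, 4.39, 4.84 and 5.67 in the control lists, in the same order. Unusually high background, 5 or more times a list's lowest, marked 3 of the 568 sites and 67 of all 7043 intervals.

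RefSeq promoter windows, on GRCm38.p6, hold the 250 bases before and 50 bases after a gene start. The stretches below are 140 bases of such windows at 9 sites, on the strand of the gene, 5′ to 3′. Capitals mark CACGTG. The first 7 are the strongest sites with an E-box in such a stretch, shown for where it lay under the peaks. The last 2 are strong sites with none in any window. Mllt1, stronger than the site at Ttc7, also had none and is not shown. Atp2b1 and Dnajc16, stronger than Hspd1, had an E-box in a window but are not shown. At Dnajc16 it lay at -109.5 bp from the strongest summit. The short distances given below thus follow in part from the choice of sites. These 9 do not stand for the sites as a whole, since 30.5% of sites that overlapped a window had the E-box in one.

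Gga2: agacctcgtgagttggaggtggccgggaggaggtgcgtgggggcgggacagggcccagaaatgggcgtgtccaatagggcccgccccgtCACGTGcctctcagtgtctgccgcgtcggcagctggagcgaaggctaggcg
Eef2k: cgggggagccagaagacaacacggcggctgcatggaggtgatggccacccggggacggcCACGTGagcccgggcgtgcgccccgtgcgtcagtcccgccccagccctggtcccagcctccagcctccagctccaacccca
Hspd1: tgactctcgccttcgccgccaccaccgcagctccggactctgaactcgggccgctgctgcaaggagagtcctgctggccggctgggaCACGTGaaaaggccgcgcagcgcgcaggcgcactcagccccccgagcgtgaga
Dnajb9: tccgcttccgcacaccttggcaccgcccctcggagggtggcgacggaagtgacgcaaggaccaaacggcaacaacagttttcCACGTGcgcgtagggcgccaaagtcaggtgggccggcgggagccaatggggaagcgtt
Cbx5: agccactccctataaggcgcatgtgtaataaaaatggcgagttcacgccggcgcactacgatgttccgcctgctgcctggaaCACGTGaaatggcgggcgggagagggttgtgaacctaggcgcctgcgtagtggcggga
Irs2: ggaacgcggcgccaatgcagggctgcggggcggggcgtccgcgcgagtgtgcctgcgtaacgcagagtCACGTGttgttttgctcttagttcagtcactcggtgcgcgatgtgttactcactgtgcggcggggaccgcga
Rmnd1: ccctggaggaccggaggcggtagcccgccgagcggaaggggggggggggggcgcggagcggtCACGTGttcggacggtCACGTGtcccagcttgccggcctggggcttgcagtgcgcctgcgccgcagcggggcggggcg
Ccno: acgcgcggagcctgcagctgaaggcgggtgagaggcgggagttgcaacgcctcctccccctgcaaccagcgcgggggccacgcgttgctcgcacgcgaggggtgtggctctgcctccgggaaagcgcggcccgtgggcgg
Ttc7: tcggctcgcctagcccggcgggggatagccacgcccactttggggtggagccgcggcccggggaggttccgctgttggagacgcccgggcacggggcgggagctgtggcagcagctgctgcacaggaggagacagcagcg

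These stretches are chr7:122021149-122021288 (minus strand) for Gga2, an adaptor of trafficking from the Golgi, and chr7:120842741-120842880 (plus) for Eef2k, the kinase that inhibits elongation factor 2. They are chr1:55088271-55088410 (minus) for Hspd1, the mitochondrial chaperonin HSP60, and chr12:44210118-44210257 (minus) for Dnajb9, a co-chaperone of the endoplasmic reticulum. For Cbx5, a heterochromatin protein whose start lies beside that of Hnrnpa1, the stretch is chr15:103239931-103240070 (minus). The remaining stretches are chr8:11008902-11009041 (minus) for Irs2, an adaptor of the insulin receptor, chr10:4432339-4432478 (minus) for Rmnd1, needed for mitochondrial translation, chr13:112987602-112987741 (plus) for Ccno, a cyclin-like protein of multiciliated cells, and chr17:87282796-87282935 (plus) for Ttc7. At Irs2 the strongest male summit lay 1.5 bp and the strongest female summit 3.5 bp from the centre of the E-box. At Eef2k the distances were 8.5 and 3.5 bp, and at Gga2 19.5 and 9.5 bp. At Rmnd1, which held 2 copies of CACGTG, the male summit was 1.5 bp and the female summit 19.5 bp from the nearer one. At Hspd1 the male and female summits were 20.5 and 42.5 bp away, at Cbx5 15.5 and 43.5 bp, and at Dnajb9 73.5 and 15.5 bp, so there the distances differed more. In these cases the strongest male summit was from ZT12 and the strongest female summit from ZT0, with 1 library each. Sex, time and library therefore cannot be told apart.

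Most of the sites joined the female ZT0 library to the male ZT12 library. Of the 568 sites, female misaligned ZT0 called 548 (96.5%), male misaligned ZT12 called 516 (90.8%), male misaligned ZT0 called 245 (43.1%) and female misaligned ZT12 called 26 (4.58%). Of all 7043 intervals, the same libraries called 18.8%, 78.7%, 26.4% and 3.08%, and 17.6%, 75.5%, 22.6% and 2.09% were called there but not in the control library of that sex and time. The rule uses these calls, so nothing is read from the difference. The sites made up 41.4% of the intervals of female misaligned ZT0 (exact Clopper-Pearson 95% interval 38.8 to 44.1, 548 of 1323), 13.2% of those of male misaligned ZT0 (11.7 to 14.8, 245 of 1860), 9.31% of male misaligned ZT12 (8.56 to 10.1, 516 of 5540) and 12.0% of female misaligned ZT12 (7.98 to 17.1, 26 of 217).

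The commonest combination was male ZT12 with female ZT0, and no other library, at 307 sites. Next came both male libraries with female ZT0 at 185, and the ZT0 libraries of both sexes alone at 50. The other 26 sites involved female ZT12: 11 with male ZT12 alone, 8 with both male libraries, 5 with male ZT12 and female ZT0, 1 with both ZT0 libraries and 1 with male ZT0. In all, 236 sites were called in both sexes at ZT0 and 24 in both sexes at ZT12, while 308 (54.2%) were never called in both sexes at the same time. The male ZT12 list was also the longest. Of the 960 intervals of female misaligned ZT0 without a control call, 512 (53.3%) were shared with male misaligned ZT12 as deposited and 251 (26.1%) with male misaligned ZT0. With the male ZT12 list shortened to the 1864 strongest peaks, the length of the male ZT0 list, 334 (34.8%) were shared with it; the part of list length was not tested further.

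**Figure D1:**
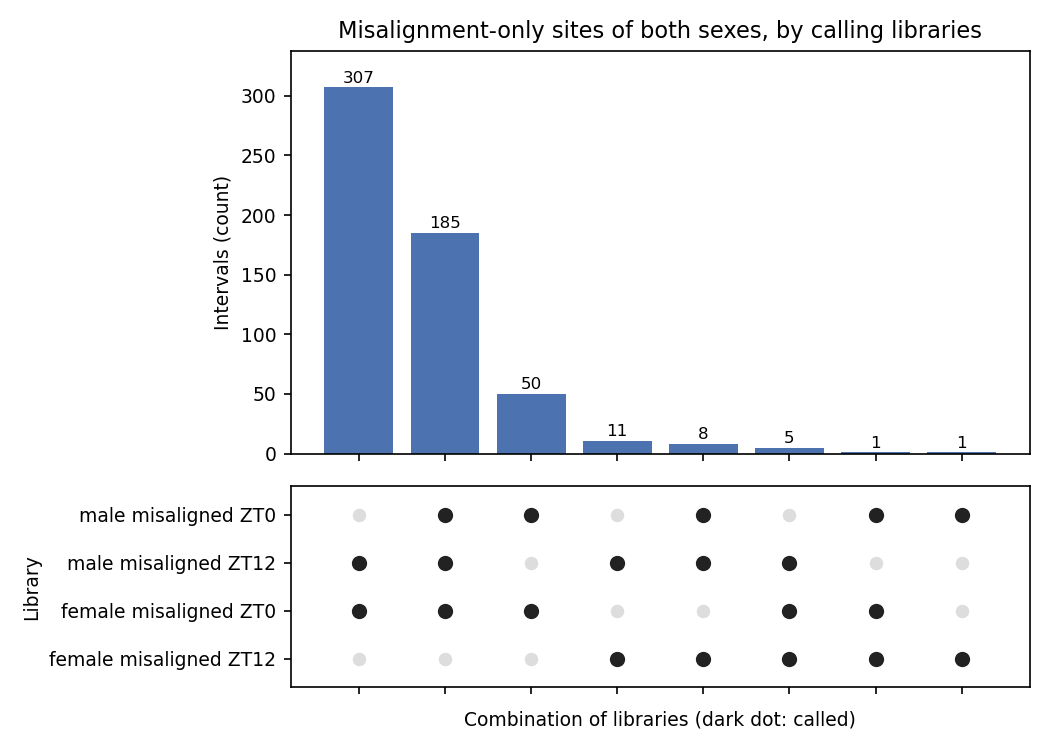
Number of misalignment-only sites of both sexes (upper panel, count) in each combination of calling libraries (lower panel, dark dots mark the libraries with a peak). The pair of male ZT12 and female ZT0 held 307 sites and the trio that adds male ZT0 held 185.

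Within the lists the sites were of middle to high rank in males, of middle rank in female ZT0 and of low rank in female ZT12. Ranks are given as percentiles of -log10 q within a list, with 100 the strongest. This value, from the authors' peak caller, is the significance of a summit over local background. It depends on the number of fragments as well as on the fold enrichment. In male misaligned ZT12, for example, the site at Gm15774 had 29.1 at a fold enrichment of 5.23, and that at Casc3 28.5 at 8.27. The median percentile was 76.3 in male misaligned ZT12 (95% interval of the median 74.0 to 78.4), 66.3 in male misaligned ZT0 (60.8 to 69.5), 50.2 (47.7 to 53.4) for females at ZT0 and 25.5 (13.3 to 34.2) for females at ZT12. In each list the sites lay between the misaligned-only intervals of 1 sex and the intervals with a control call. In female misaligned ZT0, for example, the median -log10 q was 7.21 at the sites, 3.71 at misaligned-only intervals of that sex alone and 18.5 at intervals with a control call. The rule uses the calls that rest on these same values, so this order is a description and nothing is read from it. The median fold enrichment at the sites was 4.46 in male misaligned ZT12, 3.99 in male misaligned ZT0, 3.94 for females at ZT0 and 3.30 for females at ZT12. The median summit held 41, 31, 32 and 35 fragments in the same order, over a median background of 8.11, 6.85, 7.17 and 9.91 fragments.

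**Figure D2:**
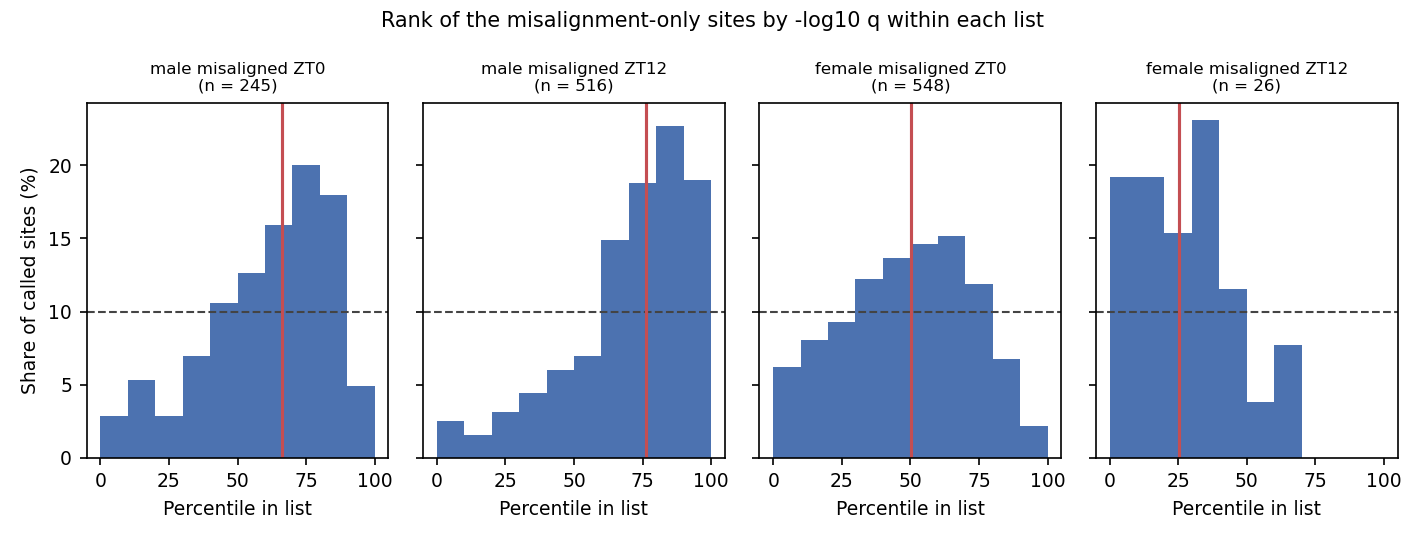
Share of the sites called in each misaligned list (y axis, %) by their percentile of -log10 q in that list (x axis, 100 strongest). The red line is the median and the dashed line the 10% that an even spread would give; the median was 76.3 in male ZT12 and 25.5 in female ZT12.

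The fold enrichments of the sites overlapped those of peaks called in the control lists. Among the sites called in female misaligned ZT0, 397 of 548 (72.4%) had a fold enrichment at or above 3.49, the median of the female control ZT0 list. In male misaligned ZT12, 235 of 516 (45.5%) reached 4.64, the median of male control ZT12, and in male misaligned ZT0, 73 of 245 (29.8%) reached 4.61, the median of male control ZT0. In female misaligned ZT12, 4 of 26 (15.4%) reached 4.06, the median of female control ZT12. Control peaks at the lowest local background (within 1.1 times it) numbered 55, 28, 177 and 5 in the same order. Their fold enrichment was at least 3.04, 3.15, 2.93 and 3.15, and 64, 74, 18 and 11 of the sites were below that in the misaligned list. Without high background, control peaks went down to a fold enrichment of 2.21, 2.54, 2.00 and 2.43. The values at the lowest background were thus not the lowest called in the controls. With each misaligned list shortened to the length of its control list, 26 intervals met the rule, beside 568 as deposited. Fold enrichment depends on depth, which is unknown, so the part of depth and of the length of the lists in the missing control calls was not tested.

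The order of the sites by strength differed between libraries. Across the sites, Spearman's rho of -log10 q was 0.35 between male misaligned ZT12 and female misaligned ZT0 (n = 497 sites), 0.27 between male and female misaligned ZT0 (n = 236) and 0.44 between the male libraries (n = 193). Across intervals called in both misaligned sexes and also in a control it was 0.63 (n = 347), 0.69 (n = 297) and 0.67 (n = 297). Sites of 1 library share its depth, and these values describe libraries, not replicates. The second set also spans a wider range of -log10 q.

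Ccno led the sites when they were ordered by the smaller of the best male and best female -log10 q. It had a -log10 q of 34.3 in male misaligned ZT0, 68.1 in male misaligned ZT12 and 43.0 in female misaligned ZT0, with 62, 100 and 72 fragments at the summit over backgrounds of 6.31, 7.80 and 6.64. No control library and not female misaligned ZT12 had a call there. Mllt1, a subunit of the super elongation complex, had 38.8 in male misaligned ZT12 and 43.3 in female misaligned ZT0, with summits 3 bp apart, and no call in male misaligned ZT0. Nfil3, a clock repressor that binds the D-boxes used by PAR-bZIP activators, had 22.0, 38.3 and 50.4 in male ZT0, male ZT12 and female ZT0, in an intron 6217 bp from the annotated start (chr13:52974461-52975252). A second site, at -87006 bp from that start, had 10.8, 11.4 and 9.86. The 2 Nfil3 sites were thus called in the same 3 misaligned libraries. Azin1, an inhibitor of antizyme in polyamine synthesis, had 17.5, 39.2 and 32.3 in the same 3 libraries.

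The others of the 20 strongest lay at promoters, in introns and, at Eepd1, between genes. The chaperonin gene Hspd1 had a -log10 q of 11.5 in male ZT0, 22.8 in male ZT12 and 21.5 in female ZT0. Dnajc16, another gene of the DnaJ family, had 15.9, 21.7 and 22.2, and Dnajb9 had 21.3 in male ZT12 and 23.5 in female ZT0. Lpcat3, an acyltransferase that puts polyunsaturated chains into phospholipids, had 23.6 in male ZT12 and 24.5 in female ZT0, in an intron. Irs2 had 25.8 in male ZT12 and 20.2 in female ZT0. Atp2b1, a plasma membrane calcium pump, had 5.90 in male ZT0 against 23.6 in male ZT12 and 25.8 in female ZT0. Snx9, a sorting nexin of endocytosis, had 18.4 and 88.2 in males at ZT0 and ZT12 and 24.9 in females at ZT0, the widest difference between libraries among the 20. The rest of the 20 were nearest Gga2, Gm15774 (the Eef2k promoter), Casc3, 4833418N02Rik (beside the Ttc7 promoter), Ubald1, Taf1c, Ldhb, Hnrnpa1 and Eepd1. All 20 were called in male misaligned ZT12 and female misaligned ZT0, and 13 of them in male misaligned ZT0 as well.

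The leading sites of the smaller combinations had lower values than Ccno. The strongest with the 2 ZT0 libraries alone was at Ndrg1, a hypoxia- and stress-responsive gene, with a -log10 q of 10.6 in males and 11.5 in females, followed by Rnf4, Uroc1, Plbd2 and Lekr1. The strongest with the 2 ZT12 libraries alone was at Trim45, a ubiquitin ligase, with 37.2 in males and 14.7 in females, followed by Gm13065, Gm9358, Slc13a2 and Abhd14a. Of the combinations with under 10 sites, 3 sites were picked after their values were seen. The site at Sec24a, a coat protein of vesicles leaving the endoplasmic reticulum, had 5.48 and 36.7 in males at ZT0 and ZT12 and 12.4 in females at ZT12. One site on the Insig2 promoter, a brake on cholesterol synthesis, named Gm37174 by the authors, had 19.7 in male ZT12, 16.1 in female ZT0 and 2.80 in female ZT12. One on the promoter of Parp1, a sensor of DNA breaks, had 16.2 in male ZT0, 19.3 in female ZT0 and 5.72 in female ZT12; the authors' nearest gene there was Mir6904 at -18299 bp.

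The limit of 3 libraries left out 15 intervals called in all 4 misaligned and no control library. Their smaller best -log10 q ran from 3.00 to 27.0 with a median of 13.3. It ran from 1.62 to 43.0 with a median of 7.86 over the 199 sites in 3 libraries, and from 1.31 to 38.8 with a median of 5.19 over the 369 sites in 2. The strongest of the 15 were at Ntpcr, Nampt (which makes the NAD precursor NMN), 2610002J02Rik and Zbtb14.

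More of the sites lay at promoters than of the misaligned-only intervals of 1 sex. By the authors' annotation 342 of 568 sites (60.2%, 56.1 to 64.3) were at promoters, 93 (16.4%) in introns, 86 (15.1%) between genes, 32 (5.63%) in exons and 15 (2.64%) at gene ends. The promoter share was 61.6% (56.5 to 66.6, 228 of 370) over intervals called in both misaligned sexes and in a control, 45.1% (40.3 to 49.9, 192 of 426) over misaligned-only intervals of females, 28.0% (26.8 to 29.3, 1494 of 5328) over those of males, and 33.6% over all 7043 intervals. The site share was thus above those of both 1-sex sets beyond counting error. It was within counting error of that of intervals with both misaligned sexes and a control. The other intervals with a control call, not called in both misaligned sexes, had 28.6% (23.8 to 33.7, 96 of 336). Intervals are not replicates, and the difference was not tested. By combination the share was 59.6% with male ZT12 and female ZT0, 63.2% with the trio and 58.0% with the ZT0 pair. It was 45.5% (5 of 11) with the ZT12 pair and 4 of 8 with both male libraries and female ZT12, with intervals that overlap the others. It was 64.4% (58.6 to 70.0) in the 284 stronger sites and 56.0% in the 284 weaker ones.

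**Figure D3:**
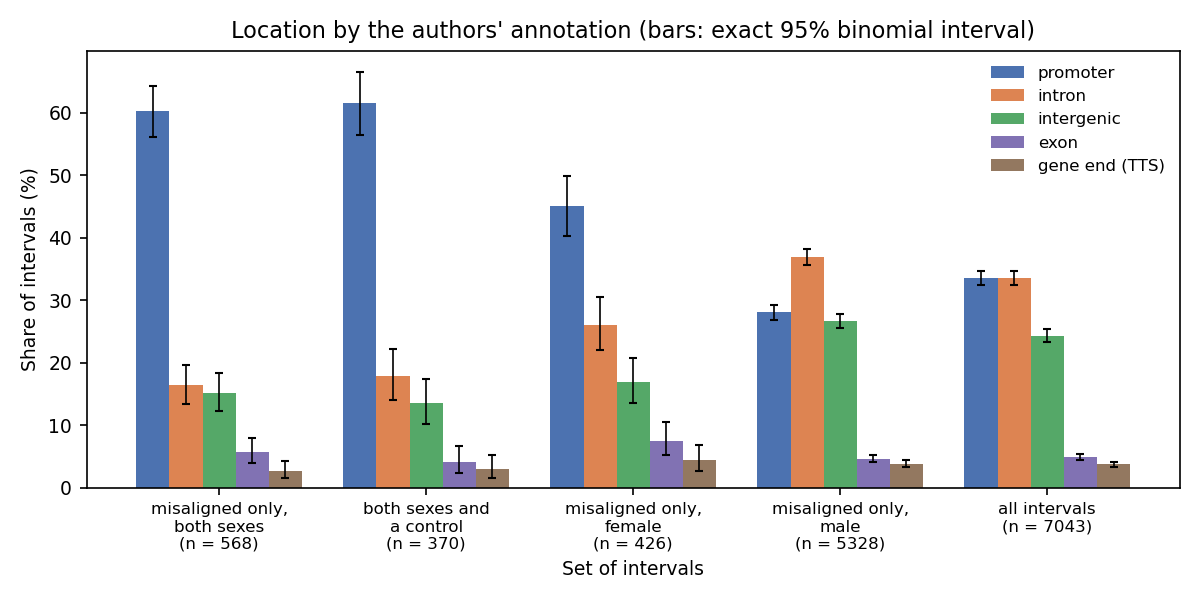
Share of intervals (y axis, %) in each kind of location by the authors' annotation, for 5 sets of intervals, with exact 95% binomial error bars. Promoters held 60.2% of the misalignment-only sites of both sexes, 61.6% of intervals with both sexes and a control, and 28.0% of the male-only set.

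The promoter annotation and the distance to the nearest gene did not always refer to the same start site. Of the 342 promoter sites, 249 lay within 1 kb of the start of the named gene and 45 lay more than 10 kb from it. Over all sites the share within 1 kb was 48.1% (43.9 to 52.3), beside 46.8% (41.6 to 52.0) of intervals with both sexes and a control, 39.7% (35.0 to 44.5) of the female and 24.6% (23.5 to 25.8) of the male misaligned-only intervals. The nearest gene was protein-coding at 428 sites (75.4%) and at 67.2% of all intervals. All sites were on the 19 autosomes, and 49 of the 7043 intervals were on X or Y.

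RefSeq promoter windows held the E-box more often where a site overlapped them than over all promoters. Of the 542 sites off chromosome 18, which was not used for sequence, 279 (51.5%) overlapped a window of the table, which is not complete, and 58 of these overlapped windows on both strands. CACGTG, which reads alike on both strands, was in a window at 85 of the 279 sites (30.5%, 25.1 to 36.2), and in 7.15% of all 32851 windows. The share was 44.1% (36.6 to 51.7, 78 of 177) for intervals with both sexes and a control, 21.4% (14.9 to 29.2, 30 of 140) for the female and 21.4% (19.1 to 23.9, 245 of 1145) for the male misaligned-only intervals. For the other intervals with a control call it was 32.8% (21.3 to 46.0, 20 of 61). Split at the median smaller best -log10 q of 6.29, stronger sites had 35.3% (27.7 to 43.5, 53 of 150). The weaker sites had 24.8% (17.6 to 33.2, 32 of 129). The sets also differ in strength, and its part in their shares was not tested. A site could overlap several windows; with only the window nearest its summit the share was 28.7% (23.4 to 34.4). Base composition differed too: the median GC content of that window was 66.3% at the sites and 52.7% over all windows. Among the 6585 windows within the interquartile range of GC of the sites, 11.4% (10.6 to 12.2) held CACGTG. The part of base composition in the share at the sites was not tested. At least 2 copies in 1 window were found at 15 sites (5.38%), against 0.594% of all windows.

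Of the other motifs searched on both strands, GGGCGG, the GC box, was in a window at 80.6% of the sites and in 35.7% of all windows, and CCAAT in 45.9% and 37.4%. The GC box was also common at the other sets, with 85.9% where a control was also called, 83.6% in the female and 72.1% in the male misaligned-only set, and CCAAT stood there at 47.5%, 43.6% and 44.1%. CACGTT, an E-box with 1 changed letter, was in 11.1% of the sites and 4.68% of all windows, CCGGAAGT, an ETS motif, in 8.24% and 3.89%, the NRF1 motif in 3.58% and 0.971%, and TGACGTCA, the cAMP response element, in 2.15% and 1.79%. TTATGTAA, a D-box, was in none of the 279 (which allows a share of up to 1.31% by the exact interval) and in 0.938% of all windows. In the same 3 sets CACGTT was at 11.3%, 8.57% and 9.69%, and CCGGAAGT at 4.52%, 10.7% and 6.72%. The NRF1 motif was there at 3.39%, 0% and 2.45%, TGACGTCA at 1.69%, 2.86% and 3.93%, and TTATGTAA at 1.69%, 0% and 1.22%. The letters of these motifs do not overlap CACGTG in full, although CACGTT shares its first 5 letters.

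At sites whose window held the E-box, it mostly lay close to the summit. Where the strongest summit of a site had 50 bases on either side inside a window, CACGTG was within those bases at 41 of 144 sites (28.5%, 21.3 to 36.6). The share was 45.9% (35.8 to 56.3, 45 of 98) for intervals with both sexes and a control, 13.0% (6.41 to 22.6, 10 of 77) for female and 14.7% (78 of 532) for male misaligned-only intervals, and 2.60% for a stretch of that length in the middle of all windows. For the other intervals with a control call it was 24.3% (11.8 to 41.2, 9 of 37). Where such a window held CACGTG, the median distance from summit to motif was 19.5 bp at the sites (n = 55), 17.5 bp at intervals with both sexes and a control (n = 54) and 34.5 bp at male misaligned-only intervals (n = 131). It was 43.5 bp at female misaligned-only intervals (n = 19) and 31.5 bp at the other intervals with a control call (n = 15). A match describes letters near a summit and does not show what bound there.

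**Figure D4:**
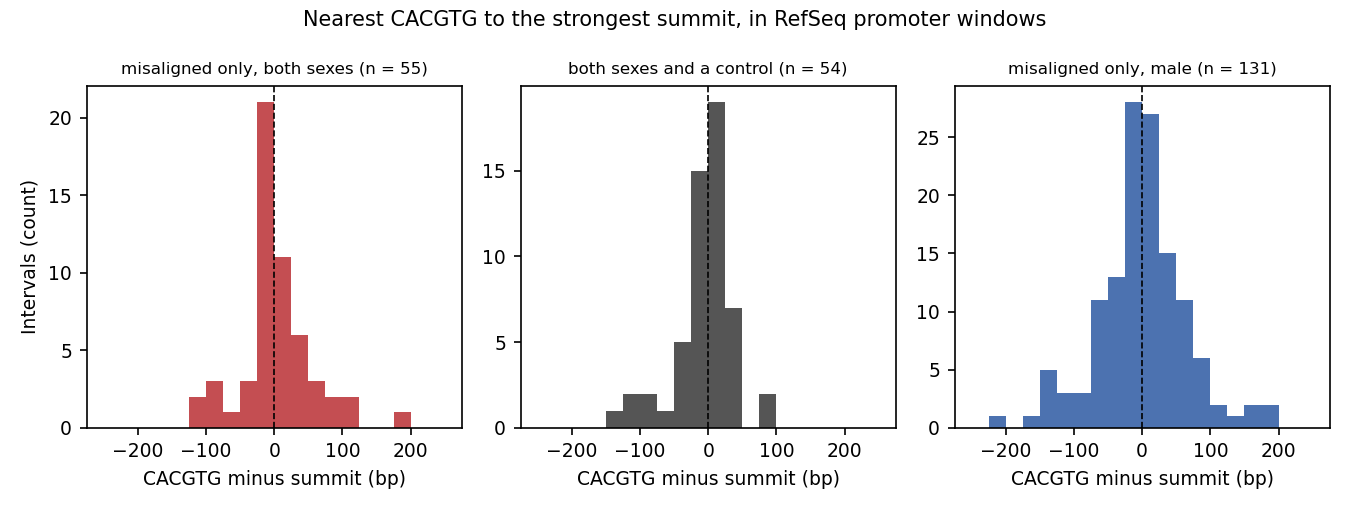
Number of intervals (y axis) by the distance in bp from the strongest summit to the nearest CACGTG in a RefSeq promoter window (x axis, 0 at the summit), for 3 sets of intervals. The median absolute distance was 19.5 bp at the misalignment-only sites of both sexes, 17.5 bp with both sexes and a control, and 34.5 bp in the male-only set.

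Male and female summits of a site lay close together, within intervals that the authors had merged because peaks overlapped. The strongest male and the strongest female summit were a median of 45.5 bp apart (95% interval of the median 41 to 51), and 307 sites (54.0%, 49.9 to 58.2) had them within 50 bp. Over intervals called in both sexes and in a control the median was 28 bp (25 to 33), and 73.0% (68.1 to 77.4) were within 50 bp. At the sites the distance went with strength. In the 284 stronger sites the median was 33 bp and in the 284 weaker ones 73 bp. For a smaller best -log10 q of 10 to 20, the median was 32 bp at the sites (n = 99). It was 28 bp at intervals with both sexes and a control (n = 115). From 5 to 10 the medians were 41.5 bp (n = 226) and 48 bp (n = 69), and under 5 they were 81.5 bp (n = 222) and 42.5 bp (n = 26). In the set with a control the distance thus did not rise steadily as strength fell. Values above 20 were not compared. The distances between the 2 male libraries (43 bp, n = 193), and between female ZT0 and male ZT12 (45 bp, n = 497) or male ZT0 (48 bp, n = 236), lay in a narrow range, and that between the ZT12 libraries was 33 bp (n = 24). The summits coincided at Rnf145, E030018B13Rik and Amz2, and were farthest apart at Adcy1, by 949 bp.

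**Figure D5:**
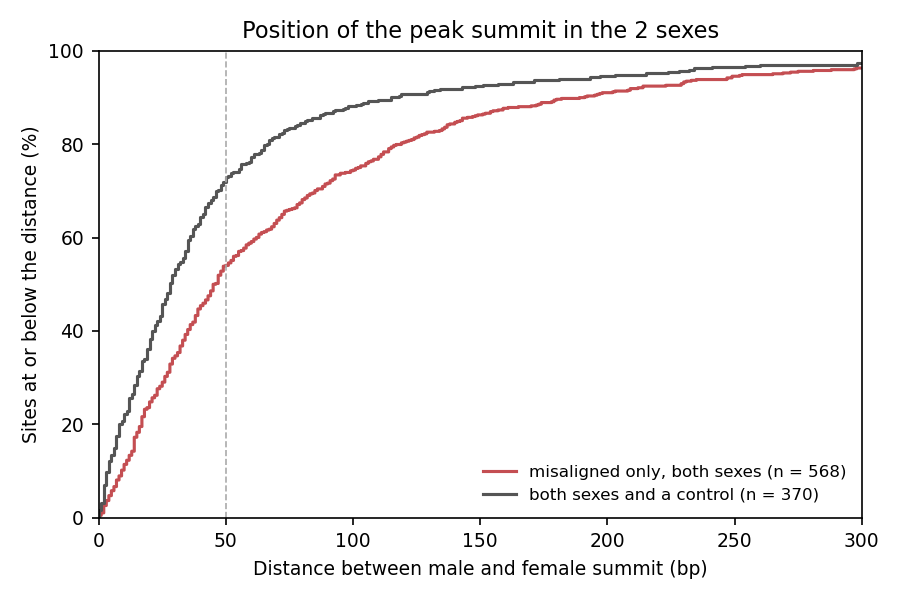
Cumulative share of intervals (y axis, %) by the distance in bp between the strongest male and the strongest female summit (x axis, cut at 300 bp). At 50 bp (dashed) 54.0% of the misalignment-only sites and 73.0% of the intervals with both sexes and a control had been reached.

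The sites lay about as far from intervals called in control liver as other misaligned-only intervals did. The median gap to the nearest interval with a control call was 617078 bp at the sites, 678327 bp at female and 729032 bp at male misaligned-only intervals, and 2 sites lay within 1 kb, 27 (4.75%, 3.16 to 6.84) within 10 kb and 114 (20.1%, 16.9 to 23.6) within 100 kb. The share within 10 kb was 4.23% (2.53 to 6.60) over female and 3.62% (3.14 to 4.16) over male misaligned-only intervals, and these intervals overlapped that of the sites. The nearest gene of 36 sites (6.34%, 4.48 to 8.67) also had an interval with a control call, close to the 6.10% of female and 6.04% of male misaligned-only intervals. The site at Irf2bp2, a transcriptional corepressor, lay 286 bp from one. At Ppara, the nuclear receptor of fatty acid oxidation, the site was 36042 bp from the annotated start and had a -log10 q of 6.64 in male ZT0, 12.9 in male ZT12 and 36.4 in female ZT0, and another Ppara interval was called in 6 libraries, controls among them.

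Genes of the pathway lists were counted where they were the authors' nearest gene to a site and the start was within 10 kb. Over 21900 RefSeq protein-coding genes 300 (1.37%) had such a site, 2437 (11.1%) had an interval of some kind and 286 had one with a control call, so a list of about 20 genes at the general rate would most often show 0 or 1. Of 22 core clock genes 3 (13.6%) had a site, 13 (59.1%) had an interval of some kind and 12 had one with a control call. Within 1 kb of the start only 1 of them had a site, and by RefSeq window overlapped also 1. Apart from Nfil3, the 3 genes with a site within 10 kb were Hlf, a PAR-bZIP activator, and Bhlhe41, a repressor related to Bhlhe40. Hlf had a site 5520 bp from its start with a -log10 q of 8.70, 16.6 and 6.52 in male ZT0, male ZT12 and female ZT0, and one 18118 bp away with 27.5, 24.0 and 12.9. Intervals with a control call lay 7890 and 20581 bp from them. Hlf was also the nearest gene of 3 intervals with a control call, the most widely called of them in all 8 libraries. Bhlhe41 had a site at its promoter with 48.8 in male ZT12 and 3.27 in female ZT0, at percentiles 96.8 and 17.9 of the lists, and the nearest interval with a control call was 8858 bp away. This gene was also nearest to 1 interval with a control call, which was called in 5 libraries.

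In a list of 23 glucose and insulin genes, 2 (8.70%) had a site, Irs2 and Ppp1r3c, a subunit that targets a phosphatase to glycogen (12.4 in male ZT12 and 6.29 in female ZT0). Kruppel-like factors, zinc finger regulators that include glucocorticoid-induced members, had 2 of 11. Klf9 had a -log10 q of 5.03, 34.0 and 11.6 in male ZT0, male ZT12 and female ZT0, and Klf13 had 6.65, 18.3 and 8.20. In the heat shock list 1 of 12 genes, Hspd1, had a site, which also overlapped the promoter window of Hspe1, the co-chaperonin gene beside it. In the glucocorticoid list it was 1 of 10, Nr3c1, the glucocorticoid receptor (5.12 in male ZT12 and 7.51 in female ZT0). The cell cycle list had 2 of 16, Cdkn2c, an inhibitor of CDK4 and CDK6, and Ccnd1, cyclin D1, whose smaller best values were 8.72 and 2.03. An interval of some kind lay within 10 kb of 9 genes of the glucose and insulin list and 7 Kruppel-like factors. It did so for 4 genes of the heat shock, 3 of the glucocorticoid and 6 of the cell cycle list.

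Counted in this way, 0 of 12 clock output genes, 24 genes of cholesterol synthesis and uptake, 18 of lipogenesis, 22 of fatty acid oxidation, 19 of bile acid and xenobiotic metabolism and 22 hepatocyte secretory genes had a site, while 9, 11, 7, 6, 6 and 7 of them had an interval of some kind. The count was also 0 for 12 stress regulators, 12 liver transcription factors, 20 inflammation and acute phase genes and 20 chromatin regulators. By position it was not 0 in 2 of these lists, because the authors' nearest gene was another one. Sites overlapped the RefSeq promoter windows of Insig2 in the cholesterol list, and of Atf3 and Nfe2l2 among the stress regulators, beside 287 of the 17492 protein-coding genes with a window (1.64%). The site at Atf3, a stress-induced transcription factor, carried the name Gm24748 and had a -log10 q of 4.29, 13.6 and 18.2 in male ZT0, male ZT12 and female ZT0. The site at Nfe2l2, the regulator of the antioxidant response, carried the name E030042O20Rik and was weak, with 1.84, 2.99 and 2.38. A second Nfe2l2 interval was among the 15 called in all 4 misaligned libraries.

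No marker gene of lymphocytes (10 genes), cholangiocytes (8), endothelium (12), myeloid or Kupffer cells (12) or stellate cells (12) had a site or any other interval within 10 kb. Of all coding genes, 1.37% had a site and 11.1% an interval of some kind within 10 kb. For sites a count of 0 is what lists of this length would mostly show at the rate of all coding genes.

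Families taken by the start of their symbols had a site within 10 kb at 0.870% to 2.08% of their symbols, predicted genes apart, beside 1.37% of all coding genes. Solute carriers had 8 of 384 (2.08%), among them Slc25a51, a mitochondrial NAD carrier (14.9 in its stronger male and 9.53 in its stronger female library). A stronger site at Slc38a4, an amino acid transporter, with a smaller best value of 18.4, lay -11062 bp from the authors' start and was not in that count. Zinc finger and ZBTB genes had 6 of 458 (1.31%), led by Zbtb18, a transcriptional repressor, and ubiquitin pathway symbols 4 of 218 (1.83%), led by Trim45. Symbols of the mitochondrial ribosome had 1 of 84 (1.19%), Mrpl48, with 2 sites. Those of the respiratory chain and its assembly had 1 of 115 (0.870%), Ndufaf4, an assembly factor of complex I, with 29.6 and 15.9 in its stronger male and female libraries. Symbols that start like ribosomal proteins had 4 of 407 (0.983%), namely Rpl13a, Rpl10a, the pseudogene Rpl30-ps3 and the kinase Rps6ka4. Predicted genes, whose symbols start with Gm, had 42 of 21795 (0.193%).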

How the data were processed

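BMAL1 chromatin immunoprecipitation from mouse liver was sequenced in 8 libraries. The submitters' processing notes name BWA 0.7.17-r1188, MACS2 2.2.7.1 and the build GRCm38. The q threshold is not given in the sources used here, and the 8 IgG libraries were not analysed here. Every deposited peak carries -log10 q, -log10 p, the fold enrichment (a ratio) and an integer score, which was not used. The authors' merged table gives a call per library, annotation and nearest gene; its calls disagreed with the lists at 0 intervals. Summit fragments and local background were solved from the fold and p of each peak (99.1% to 100% of peaks per list, relative tolerance 0.0001), with 100% of 500 simulated peaks recovered.

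Sites and gene lists were chosen with earlier results of these data known. Named genes were the 20 sites with the highest smaller of the best male and best female -log10 q, the 5 strongest per combination of at least 10 sites, core clock genes, up to 4 genes per list, and the extremes of summit distance. Peak coordinates are 1-based. Shares carry exact 95% Clopper-Pearson intervals. Promoter windows are RefSeq, GRCm38.p6, matched by position or symbol, and chromosome 18 was not used for sequence. Python 3.11.15 and scipy 1.17.1 were used. Alternatives are given in the closing section.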

Additional observations from a re-analysis of the deposited data

How the results depend on the processing

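The number of sites, 568 as deposited, was 501 at -log10 q of at least 3, 451 where a male and a female peak had to overlap by 50% of both, 565 without high background, 583 with all 4 misaligned libraries allowed, 566 with no control peak within 1 kb, and 426 with the male ZT12 list shortened to the male ZT0 length (an alternative chosen after seeing the data). With each misaligned list shortened to its control's length, a setting in which far fewer peaks entered, it was 26, and male ZT12 then called 65.4% of them. Leaving out 1 misaligned list gave 41 to 563 sites: 41 without female ZT0, 260 without male ZT12, 531 without male ZT0 and 563 without female ZT12. The promoter share was 60.2% to 63.4% at -log10 q of at least 3, without high background and without each misaligned list, was not recomputed for the other settings, and was 48.1% within 1 kb of the start and 60.4% within 5 kb. By fold enrichment the median percentile in male ZT12 was 71.7; the cause was not tested. By the symbol of the nearest gene within 1 kb, 27.2% of sites (53 of 195) had CACGTG in a promoter window, and 24.9% within 10 kb. For gene lists, 23 of 29 counts within 1 kb, 21 of 29 at any distance and 21 of 29 by the RefSeq window overlapped (chosen after seeing the data) were within 1.5 times the count within 10 kb. A list with 0 genes within 10 kb must have 0 within 1 kb, so its unchanged count there shows nothing. The 6 counts that moved within 1 kb were in lists with a site. They were core clock (3 to 1), Kruppel-like factors (2 to 1) and cell cycle (2 to 0). The others were solute carriers (8 to 4), zinc finger and ZBTB genes (6 to 3) and predicted genes (42 to 14). No paired analysis was possible because each group has 1 library and the results come from no test; pairing misaligned with control libraries over sex and time would test calls that the rule itself fixes. Unknown depth limits what the missing control calls show.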
